A study of Mus musculus with 18 samples.

Results

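The cytosolic ribosome is built from the ribosomal RNAs and a fixed set of proteins, most of which are encoded by 1 active gene each. The genes described here were taken from the table of gene counts by symbol: every gene named Rpl or Rps with a number, with or without the endings that mark the a, x and paralog forms, together with Rplp0, Rplp1, Rplp2 and Rpsa. Of the 62197 genes in the table, 85 matched, and 84 of these reached 10 normalized counts in 3 or more of the 18 libraries and are the members. The exception was Rpl10l, a retrogene copy of Rpl10 known from the testis, which was listed at 0 in all 18 libraries. By role, 30 members belong to the small subunit, 43 to the large subunit and 3 to the acidic stalk that recruits elongation factors, and 8 are paralogs or copies outside the core ribosome (Rpl3l, Rpl7l1, Rpl22l1, Rpl36al, Rpl39l, Rps27l, Rps4l and Rpl32l). All comparisons were fitted with limma over the 17875 genes that passed the same limit on low counts.

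Ribosomal protein messages are among the most abundant messages of most cells. Their transcripts start with a run of pyrimidines, the terminal oligopyrimidine (TOP) motif, through which the growth regulator mTORC1 and the RNA-binding protein Larp1 govern their translation and stability together. In dendritic cells (DCs), maturation is known to be accompanied by a shift in protein synthesis, and several ribosomal proteins also act away from the ribosome.

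The data are bulk, poly(A)-selected RNA-seq profiles of mouse bone marrow-derived DCs grown for 10 days with GM-CSF from J558 cell supernatant. Cells were WT or KO for Pla2g4a, the gene of the lipase cPLA2, and KO cells came from mice in which a conditional Pla2g4a allele had been crossed to an Itgax-cre driver, so that deletion depends on Cre activity in CD11c-expressing cells. Each genotype was profiled in 3 states with 3 libraries per group: nonconfined DCs taken at the end of the culture, DCs held under a ceiling of 3 µm and collected after 4 h, and nonconfined DCs given a pulse of 100 ng/ml LPS, washed and kept until the following day. The length of the pulse differs between the sample records and the paper. Depth ran from 33027230 to 61300021 gene-assigned reads per library (median 40950400), and 2 library kits were named (TruSeq Stranded mRNA and Illumina Stranded mRNA Prep Ligation) without saying which library was made with which. The 3 replicates of a group are described as biological, but the animal or culture of each is not given in the sources used here, so p-values measure only the spread between these libraries, part of which may be technical. The confined and the LPS states also differ from the nonconfined state in time after culture, so that treatment and time cannot be told apart.

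DC markers were present in every library. The 7 DC genes (Itgax, H2-Ab1, Cd74, Flt3, Zbtb46, Ciita and Ccr7) were all measured, none was at 0 throughout, and Cd74 was the most abundant of them. Genes of other myeloid cells were present as well, and their levels are given further on. Pla2g4a itself had 697, 686 and 770.4 normalized counts in nonconfined WT, 548, 542 and 533 in nonconfined KO, 1369, 1430.3 and 1321 in confined WT and 923, 871 and 919.5 in confined KO libraries. The libraries labelled LPS WT had 1005, 969 and 967 and those labelled LPS KO had 1065, 1032 and 1028, so the genotype difference seen in the other states was missing between the LPS labels. A count per gene does not show whether reads of the deleted part are among them. The Y-linked gene Ddx3y did not follow the LPS labels either, with 949, 981 and 874 counts in nonconfined KO against 3.05, 0 and 1.97 in nonconfined WT, but 1271, 0 and 662 in the libraries labelled LPS WT and 2.12, 1476 and 783 in those labelled LPS KO. By Ddx3y, replicate 1 of each LPS label goes against its label, replicate 2 of each matches it and replicate 3 of each is intermediate, so LPS was compared as the mean over both labels. Fitted without these 6 libraries, confinement gave 2 members higher and 21 lower in WT and 0 higher and 71 lower in KO, and their difference 0 higher and 32 lower, against 2 and 21, 0 and 69, and 0 and 27 with them. Outside LPS, Ddx3y also separated KO from WT. The 4 Y-linked genes measured summed to at most 4.57 in nonconfined WT and 2.37 in confined WT libraries. They summed to at least 1718 in nonconfined KO and 1789 in confined KO. Genotype therefore cannot be told apart from the sex of the animals the cells came from, or from the animals themselves.

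Members took up a modest and condition-dependent part of the sequenced RNA. They held 2.84%, 2.82% and 2.85% of the reads on genes in the 3 nonconfined WT libraries, 2.88%, 2.60% and 2.80% in nonconfined KO, 2.34%, 2.29% and 2.31% in confined WT and 2.15%, 2.37% and 2.31% in confined KO. In the 6 LPS libraries the lowest share was 1.73%, the median 1.81% and the highest 1.90%. The shares of the nonconfined, confined and LPS states did not overlap with each other, nonconfined being highest and LPS lowest, while within each state the 2 genotype labels overlapped. A share falls when other genes gain reads, and the 100 most abundant other genes took a mean of 21.9% of reads in nonconfined WT against 28.1% in the libraries labelled LPS KO. With those genes left out of the total, mean shares were 3.63% in nonconfined WT, 3.60% in nonconfined KO, 3.07% in confined WT, 3.03% in confined KO, 2.51% in LPS labelled WT and 2.53% in LPS labelled KO.

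The scale set by the typical gene gave another picture. The authors' size factors hold the middle of all genes in place, and on that scale the distance between the median member and the median gene tested was 4.56, 4.60 and 4.63 log2 units in nonconfined WT, 4.80, 4.53 and 4.67 in nonconfined KO and 4.63, 4.68 and 4.59 in confined WT. In confined KO it was 4.32, 4.48 and 4.47, and all 3 of these libraries lay below the other 15 libraries. In bulk RNA, fewer cells with many ribosomes and less of this RNA per cell cannot be told apart. When libraries were set to equal totals instead, the median change of all genes was -0.23 (log2) for confinement in WT, -0.024 for confinement in KO, -0.46 for LPS, 0.19 for confined KO minus confined WT and 0.24 for the difference between the genotypes' changes, where the authors' size factors gave -0.0055, 0.010, 0.020, 0.041 and 0.051. For that reason, directions of the family are given on both scales and beside the median of all genes. A change of scale moves all genes of a library by nearly the same amount. The distance of the members from the median gene is therefore nearly fixed across scales, and its sameness is no check of the scale.

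**Figure D1:**
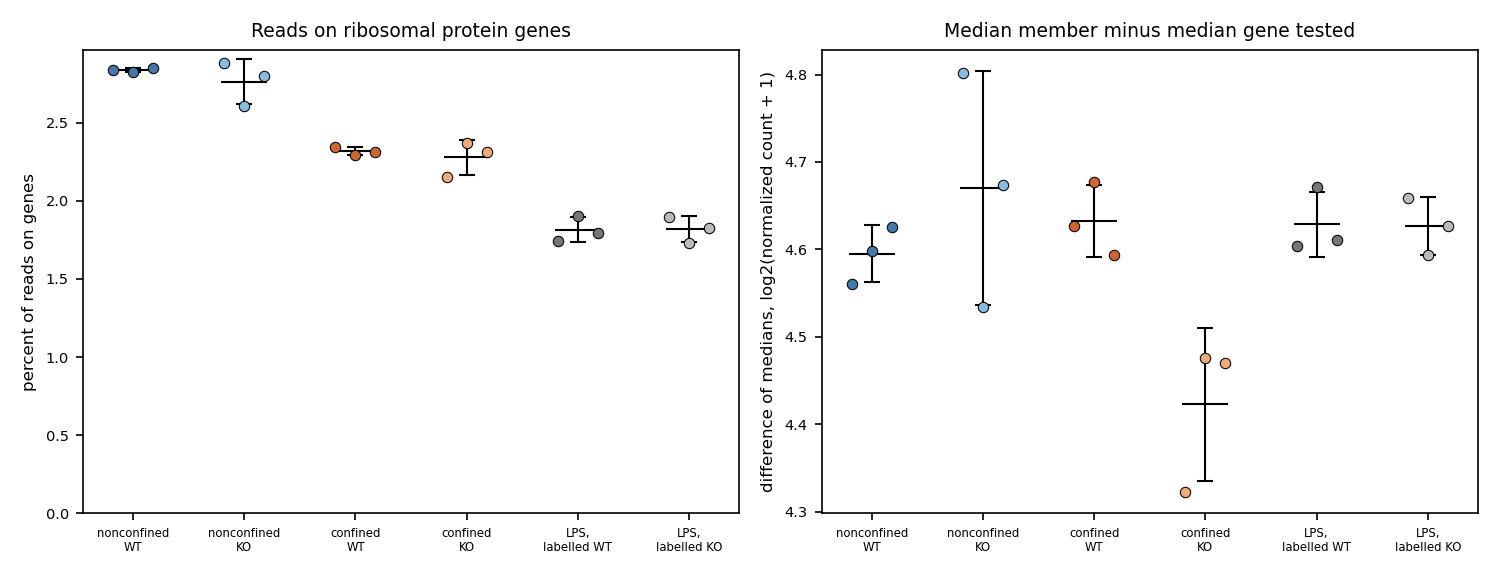
Left, percent of the reads on genes that fell on the 84 members in each of the 18 libraries (points), with mean ± SD of 3 libraries; nonconfined WT averaged 2.84%, confined WT 2.32% and LPS labelled WT 1.81%. Right, the log2 distance between the median member and the median gene tested, which in confined KO lay between 4.32 and 4.48 and in the other groups between 4.53 and 4.80.

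Levels between members were compared per 1000 bases of coding sequence (normalized counts per kb, mean of the 18 libraries). Reads on untranslated parts are counted, but those parts are not in this length. A gene whose coding sequence is a small part of its message is therefore raised on this measure. The median member had 16858 per kb, with 23266 for the small subunit, 12642 for the large subunit and 54663 for the 3 stalk proteins, and 2770 for the members outside the core. The highest level per kb was 187918, that of Rpl41, whose product is the smallest protein of the large subunit. At the other end was Rpl3l, the muscle-associated paralog of Rpl3, at 47.0. In summed counts, the small subunit supplied 42.7% of the family total, the large subunit 45.2%, the stalk 10.5% and the others 1.66%. The stalk protein Rplp0 had the highest mean count (51985) and Rpl39l the lowest (24.0).

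Ribosomal protein genes have many processed pseudogenes, and how reads that fit both a gene and its copy were counted is not given in the sources used here. Every 100-base window of the coding sequence was found again elsewhere in the genome for 23 core members, whose median level was 5237 per kb, against 22679 for the 47 with some such windows and 43162 for the 6 with none. The levels of Rpl5, Rpl10, Rpl11, Rpl12, Rpl24, Rpl27, Rpl36a, Rpl38, Rps6, Rps13, Rps23 and Rps27, all with 100% of windows found elsewhere, are for that reason uncertain. Their fold changes rest on the reads that were assigned, and whether reads of copies are among them was not tested. The count for Rps27 is listed jointly with Rps27rt. Rpl32l, a transcribed copy with no coding length in the annotation, was left out of the values per kb.

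In confined WT DCs a minority of the members was lower. At an adjusted p under 0.05, 21 of the 84 fell (25%) and 2 rose (2.38%), while 28.4% of all 17875 genes fell and 28.2% rose. The median member changed by -0.071 (log2) and the median gene by -0.0055, and 64 members were below 0. The calls were spread over the subunits, with 8 of 30 small subunit proteins, 11 of 43 large subunit proteins and 2 of the 8 paralogs lower. With libraries set to equal totals, 74 members were lower and none higher, at a median of -0.30 where all genes moved by -0.23. The members sat 0.070 below the typical gene with equal totals and 0.066 with the authors' size factors, a distance that rescaling hardly alters.

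Rpl11 and Rpl5, which together with their RNA partner bind Mdm2 when ribosome assembly stalls, were among the clearest decreases. Rpl11 (chr4:135776667-135780704, GRCm39) had 2038, 1795 and 1909 normalized counts in nonconfined WT and 1301, 1254 and 1383 in confined WT. It also had 2024, 1646 and 1870.1 in nonconfined KO and 1241, 1255 and 1594 in confined KO. Every confined library was below every nonconfined library of either genotype. The log2 change was -0.54 (SE 0.086, adjusted p = 1.34e-05) in WT and -0.44 (SE 0.086, adjusted p = 0.000232) in KO, and -0.77 and -0.48 on the scale of equal totals. For Rpl5 the counts were 1979, 1795 and 2151 in nonconfined WT and 1595, 1460.3 and 1541 in confined WT, groups that did not overlap. It changed by -0.36 (SE 0.063, adjusted p = 4.22e-05) in WT and by -0.30 (SE 0.063, adjusted p = 0.000564) in KO.

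Rpsa, a small subunit protein also known as the laminin receptor precursor, had 41326 ± 1198 counts in nonconfined WT and 35529.9 ± 1198 in confined WT (mean ± SD, n = 3), a change of -0.22 (SE 0.049, adjusted p = 0.000644). In KO it went from 42015 ± 2836 to 33873 ± 1576, a change of -0.31 (SE 0.049, adjusted p = 2.28e-05). Rpl36al, an intronless copy of Rpl36a that is itself expressed, was at 5051 ± 120.5 in nonconfined WT and 4000.3 ± 85.3 in confined WT. Its change was -0.34 (SE 0.046, adjusted p = 2.24e-06) in WT and -0.40 (SE 0.046, adjusted p = 3.41e-07) in KO, and no confined library reached the level of a nonconfined one. The parent gene Rpl36a on the X chromosome changed by -0.45 (SE 0.14, adjusted p = 0.0109) in WT, which became -0.38 (adjusted p = 0.0565) without nonconfined WT replicate 1. In KO its change of -0.12 was not called, and neither was the difference between the genotypes, 0.33 (adjusted p = 0.257). Rps23, the protein next to the decoding centre, changed by -0.47 (SE 0.12, adjusted p = 0.00278) in WT and by -0.39 (SE 0.12, adjusted p = 0.0149) in KO, the latter -0.34 (adjusted p = 0.0633) without nonconfined KO replicate 1 and -0.29 (adjusted p = 0.0884) without confined KO replicate 1. Rpl3, which reaches toward the peptidyl transferase centre, changed by -0.16 (SE 0.050, adjusted p = 0.00832) in WT, or -0.13 (adjusted p = 0.0508) without confined WT replicate 2, and by -0.25 (SE 0.050, adjusted p = 0.000326) in KO.

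The 2 members called higher in confined WT cells were Rpl24 and Rplp2, and both calls depend on the scale. Rpl24 joins the large subunit late in its assembly and forms a bridge to the small subunit. Its counts were 1584, 1679 and 1772 in nonconfined WT and 2018, 1918 and 1793 in confined WT, with the confined libraries on top and no overlap. The change was 0.19 (SE 0.061, adjusted p = 0.0133) with the authors' size factors but -0.039 (adjusted p = 0.584) with equal totals, and it was 0.15 (adjusted p = 0.0783) without nonconfined WT replicate 1 and 0.15 (adjusted p = 0.0758) without confined WT replicate 1. Rplp2, a stalk protein that contacts elongation factors, had 7868, 8082 and 8079 in nonconfined WT and 9537, 9193 and 9183 in confined WT. Its change was 0.22 (SE 0.073, adjusted p = 0.0154), but -0.009 (adjusted p = 0.93) with equal totals and 0.20 (adjusted p = 0.0522) without confined WT replicate 1. Without confined WT replicate 1 no member was called higher and without nonconfined WT replicate 1 only 1 was, and without confined WT replicate 2 the number of members called lower was 13.

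In KO DCs most of the family was lower after confinement, on every scale tried. Of 84 members 69 fell (82.1%) and none rose, against 23.4% of all genes that fell and 22.8% that rose. At unadjusted p under 0.05 limma gave 72 lower and 0 higher, beside 9309 of 17875 genes in either direction, and at an adjusted p under 0.05 edgeR called 71 lower and 0 higher and DESeq2 71 lower and 0 higher. The median member changed by -0.27 and the median gene by 0.010, and 83 members were below 0, the exception being the uncalled copy Rpl32l. Decreases took in 28 of 30 small subunit proteins and 38 of 43 large subunit proteins, but 1 of 3 stalk proteins (Rplp0) and 2 of 8 paralogs. The direction held on every scale tried: equal totals gave 72 lower and none higher with a median of -0.31, TMM gave 71 lower and none higher with a median of -0.28, and all 69 members called lower were called lower under both and by edgeR and DESeq2 too. The scales hardly differ for this comparison, with the median gene at 0.010, at 0.0011 with TMM and at -0.024 with equal totals. Holding on each of them was therefore a weak check. Leaving out any 1 of the libraries compared gave between 59 and 74 members lower.

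The decreases in KO were small and ranged down to -0.51. Rpl35a, a large subunit protein mutated in some inherited anaemias, shows the size of the shift: 8395, 7595 and 8461 counts in nonconfined KO and 5956, 6614 and 6683 in confined KO, against 7441, 7205 and 7556 and 7470.5, 7649 and 7583 in the WT states. All 3 confined KO libraries were below all 9 other libraries without LPS, and the change in KO was -0.34 (SE 0.048, adjusted p = 5.27e-06). Rps20, a protein of the small subunit head, had 14849, 12687 and 14809 in nonconfined KO and 10796, 12072 and 11588 in confined KO, a change of -0.30 (SE 0.057, adjusted p = 0.000216). Rpl37 had 2289, 1905 and 2079 and 1316, 1444 and 1713, groups again without overlap, and changed by -0.49 (SE 0.079, adjusted p = 2.62e-05). For Rpl27 the counts were 1783, 1772 and 1829 and 1593, 1159 and 1123 and the change was -0.49 (SE 0.12, adjusted p = 0.00158). The largest decrease by size, that of the jointly listed Rps27 (133, 119 and 105 against 78.8, 78.9 and 91.1 counts), was -0.51 (SE 0.18, adjusted p = 0.0271), and it was -0.51 to -0.43 with adjusted p from 0.057 to 0.108 when any 1 of nonconfined KO replicate 1 or 2 or confined KO replicate 1 or 2 was left out.

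**Figure D2:**
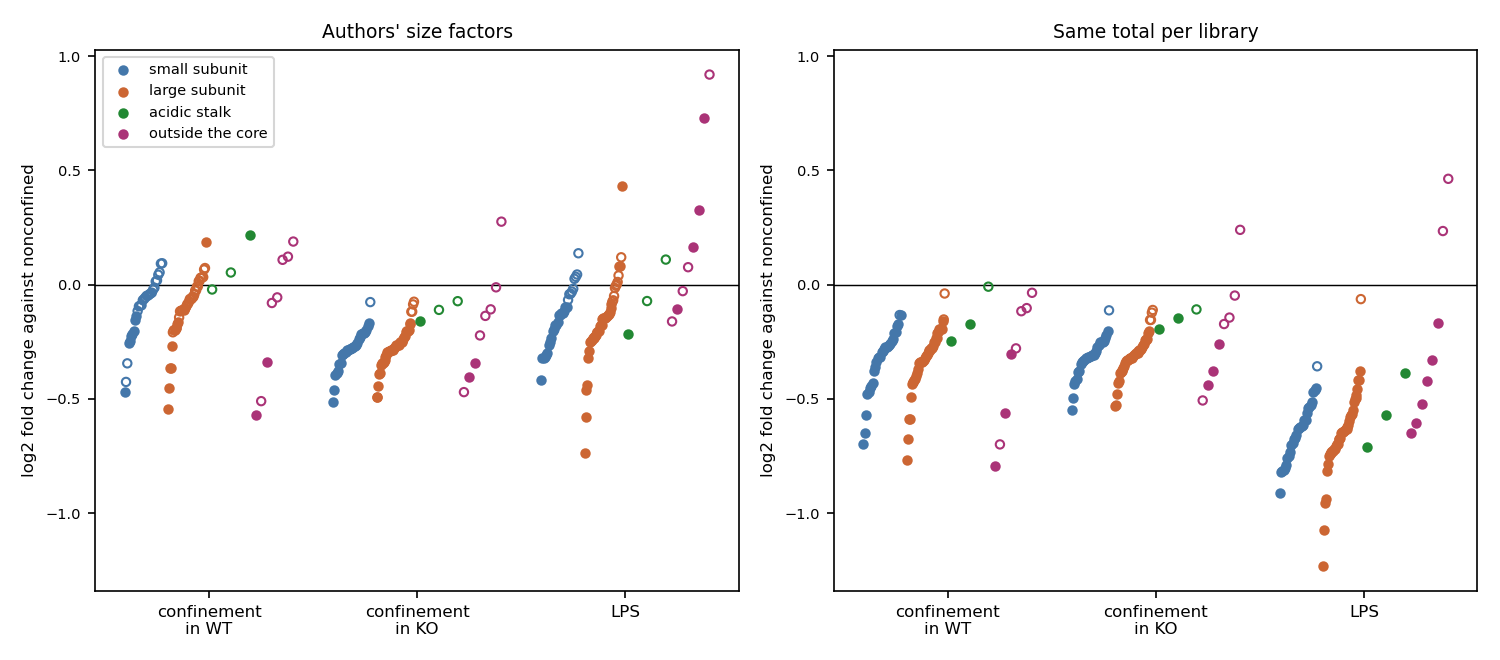
Log2 fold change against nonconfined cells for each of the 84 members (points; filled where the adjusted p was under 0.05), coloured by subunit, for confinement in WT, confinement in KO and LPS, with the authors' size factors (left) and with libraries set to equal totals (right). The median member changed by -0.071 in WT, -0.27 in KO and -0.14 with LPS on the left, and by -0.30, -0.31 and -0.63 on the right, where the median of all genes moved by -0.23, -0.024 and -0.46.

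Whether the change with confinement differed between the genotypes was tested directly as the change in KO minus the change in WT. Here 27 members had a lower value (32.1%) and none a higher one, beside 15.6% of all genes lower and 10.2% higher. At unadjusted p under 0.05 limma gave 44 lower and 0 higher, beside 6418 of 17875 genes in either direction, and at an adjusted p under 0.05 edgeR called 40 lower and 0 higher and DESeq2 34 lower and 0 higher. The median was -0.17 for members and 0.051 for all genes. On the scale of equal totals the family's direction was lost: 1 member was lower and 4 were higher, the median member was at 0.018 and the median gene at 0.24. Measured against the median of all genes, the members lay at -0.22 with the authors' size factors, with TMM and with equal totals. Rescaling hardly alters this distance, so its sameness is no separate result. The count also rested on single libraries. It was 10 without nonconfined KO replicate 1 or without confined WT replicate 1, 13 without nonconfined KO replicate 3 or confined KO replicate 1, 16 without nonconfined WT replicate 2 and 48 without nonconfined KO replicate 2. Of the 51 members lower in KO and not called in WT, 24 passed this test.

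Rps27l was the one member whose genotype difference was called by limma on all 3 scales and by edgeR and DESeq2. It is a paralog of Rps27 and a target of p53 in other cells, and none of its coding windows was found elsewhere in the genome (chr9:66853368-66856804, GRCm39). Normalized counts were 4786, 4889 and 5207 in nonconfined WT, 5386, 5314 and 5490.2 in confined WT, 5897, 4952 and 5331 in nonconfined KO and 3955, 4606 and 4196 in confined KO. The confined KO libraries were below all others, and confined WT libraries lay within the range of nonconfined KO. The change was -0.34 (SE 0.060, adjusted p = 7.22e-05) in KO and 0.12 in WT, and the difference between these was -0.46 (SE 0.084, adjusted p = 0.000236), or -0.28 (adjusted p = 0.0199) with equal totals. The parent Rps27 had an uncalled difference of -0.087.

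Other members show the dependence on scale. The difference was -0.38 (SE 0.069, adjusted p = 0.000239) for Rpl35a and -0.35 (SE 0.080, adjusted p = 0.00241) for Rps20, and -0.19 (adjusted p = 0.0502) and -0.16 (adjusted p = 0.149) with equal totals. For Rpl24, which was higher in confined WT and lower in confined KO at -0.17 (SE 0.061, adjusted p = 0.0302), or -0.16 to -0.12 with adjusted p from 0.0715 to 0.162 when any 1 of nonconfined KO replicate 1 or confined KO replicate 1 or 2 was left out, the difference was -0.35 (SE 0.087, adjusted p = 0.00401) and -0.16 (adjusted p = 0.12) with equal totals. Rplp2 had 9117, 7702 and 9736 counts in nonconfined KO and 8206, 8802 and 8142 in confined KO, with overlap. Its difference of -0.29 (SE 0.10, adjusted p = 0.044) was -0.30 to -0.22 with adjusted p from 0.0641 to 0.141 when any 1 of nonconfined WT replicate 1, 2 or 3, nonconfined KO replicate 1 or 3, confined WT replicate 1, 2 or 3 or confined KO replicate 1 or 3 was left out. With the replicate number as a term, the difference for Rplp2 was not called either (adjusted p = 0.0642). For Rpl10, whose counts of 4672, 4545 and 4585 in confined WT and 4804, 4499 and 4227 in confined KO overlapped and whose nonconfined KO level lay above that of WT, the difference was -0.36 (SE 0.11, adjusted p = 0.0249), and it was -0.35 to -0.30 with adjusted p from 0.0518 to 0.0775 when any 1 of nonconfined WT replicate 1, nonconfined KO replicate 1 or 3, confined WT replicate 1 or confined KO replicate 3 was left out. The difference for Rpl37 was -0.30 (SE 0.11, adjusted p = 0.0491), and it was -0.32 to -0.22 with adjusted p from 0.0699 to 0.151 when any 1 of nonconfined WT replicate 1, 2 or 3, nonconfined KO replicate 1 or 3, confined WT replicate 2 or 3 or confined KO replicate 1 or 2 was left out. Rpl32, at -0.29 (SE 0.086, adjusted p = 0.0155), kept its call without any 1 of the libraries, unlike Rps21 and Rps19. For Rps21, a late-joining protein of the small subunit, the value was -0.31 (SE 0.10, adjusted p = 0.0235) and became -0.29 to -0.24 with adjusted p from 0.0568 to 0.0747 when any 1 of nonconfined WT replicate 2, nonconfined KO replicate 1 or 3, confined WT replicate 1 or confined KO replicate 1 was left out. For Rps19, the gene most often mutated in Diamond-Blackfan anaemia, it was -0.23 (SE 0.072, adjusted p = 0.0193) and became -0.21 to -0.20 with adjusted p from 0.0544 to 0.0595 when any 1 of nonconfined KO replicate 1 or 3 or confined WT replicate 1 was left out. With equal totals none of these was called, at -0.17 (adjusted p = 0.258) for Rpl10, -0.10 (adjusted p = 0.496) for Rplp2, -0.12 (adjusted p = 0.454) for Rpl37, -0.10 (adjusted p = 0.392) for Rpl32, -0.12 (adjusted p = 0.386) for Rps21 and -0.045 (adjusted p = 0.669) for Rps19.

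Between nonconfined KO and nonconfined WT the family hardly differed. At an adjusted p under 0.05, 2 members were higher (2.38%) and 2 lower (2.38%), beside 4.78% of all genes higher and 4.11% lower, and the median was 0.019 for members and -0.0016 for all genes. With equal totals 2 were higher and 2 lower, at a median of -0.015 for members and -0.035 for all genes. The 2 higher members were Rpl10 and Rps4l and the 2 lower ones Rpl3 and Rpl7l1, and these 4 were called on each of the 3 scales and by edgeR and DESeq2. Rpl10, which completes the tRNA site of the large subunit, had 4222, 4507 and 4399 counts in WT and 5737, 4876 and 5897 in KO. The KO libraries were all above the WT libraries. The difference was 0.33 (SE 0.081, adjusted p = 0.0149), and 0.27 to 0.30 with adjusted p from 0.0637 to 0.0879 when any 1 of nonconfined WT replicate 1 or nonconfined KO replicate 1 or 3 was left out. Rpl3 had 11919, 11401 and 11785 in WT and 10707, 9886 and 9721 in KO, again without overlap, a difference of -0.21 (SE 0.050, adjusted p = 0.0107) or -0.19 (adjusted p = 0.0653) without nonconfined KO replicate 3. For Rpl7l1, a nucleolar relative of Rpl7, the difference was -0.16 (SE 0.041, adjusted p = 0.0195), and -0.13 (adjusted p = 0.109) without nonconfined WT replicate 3 and -0.14 (adjusted p = 0.0862) without nonconfined KO replicate 1. The number of members called higher was 6 without nonconfined KO replicate 2, 1 without nonconfined WT replicate 3 and 0 without nonconfined WT replicate 1, nonconfined KO replicate 1 or nonconfined KO replicate 3, and 1 was called lower without nonconfined WT replicate 3, nonconfined KO replicate 1 or nonconfined KO replicate 3.

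After confinement the genotypes stood apart. In confined KO against confined WT cells, 47 members were lower (56.0%) and 2 higher (2.38%), beside 20.6% of all genes lower and 18.8% higher. The median was -0.18 for members and 0.041 for all genes, and 75 members were below 0. With equal totals 4 were lower and 5 higher, at a median of -0.029 where all genes moved by 0.19, so the direction of the family depended on the scale. Against the median gene the members lay at -0.22 on both scales, a distance that rescaling hardly alters. Without confined KO replicate 1 the number called lower was 30, and without confined WT replicate 2 or confined WT replicate 3 the number called higher was 1. Called on every scale and by every tool were the decreases of Rpl24, Rpl3, Rps20 and Rps27l and the increases of Rpl39l and Rps4l. Rpl24 had 2018, 1918 and 1793 counts in confined WT and 1438, 1434 and 1483 in confined KO, which did not overlap, and differed by -0.39 (SE 0.061, adjusted p = 2.3e-05). Rps27l differed by -0.35 (SE 0.060, adjusted p = 7.55e-05), Rps20 by -0.33 (SE 0.057, adjusted p = 8.84e-05) and Rpl3 by -0.30 (SE 0.050, adjusted p = 5.6e-05).

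Rps4l, an autosomal intronless copy of the X-linked Rps4x (chr6:148256153-148257096, GRCm39), was a minor gene that separated KO from WT outside LPS: 91.4, 110.00 and 102 counts in nonconfined WT and 104, 84.0 and 104 in confined WT, against 177, 160.1 and 159 in nonconfined KO and 162, 139 and 160.4 in confined KO. All these KO libraries were above all these WT libraries, and the part of the animals' sex or origin in this was not tested. The difference was 0.71 (SE 0.19, adjusted p = 0.0238) in nonconfined cells, or 0.64 to 0.73 with adjusted p from 0.0615 to 0.104 when any 1 of nonconfined WT replicate 1 or 3 or nonconfined KO replicate 1 or 3 was left out, and 0.65 (SE 0.19, adjusted p = 0.00918) in confined cells, or 0.55 (adjusted p = 0.0505) without confined WT replicate 2. Per kb of coding sequence it stood at 203, against 21018 for its parent Rps4x, for which the confined genotypes differed by -0.15 (SE 0.050, adjusted p = 0.023) with the authors' size factors, by 0.0081 with equal totals, and by -0.13 to -0.12 with adjusted p from 0.0725 to 0.101 when any 1 of confined WT replicate 1 or confined KO replicate 1 or 2 was left out.

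Rpl39l, the germ-cell paralog of the exit tunnel protein Rpl39, had 10.7, 2.56 and 3.93 counts in nonconfined WT and 5.80, 9.43 and 0 in confined WT, against 35.3, 25.1 and 36.9 in nonconfined KO and 35.6, 23.5 and 29.2 in confined KO. The genotypes did not overlap in either state, although all counts were low. Confined KO was higher by 2.86 (SE 0.84, adjusted p = 0.00954), with 1.83 (adjusted p = 0.0849) without confined WT replicate 3. For nonconfined cells the value was 2.48 and the adjusted p 0.0717, which did not pass. In the LPS libraries Rpl39l had 73.5, 7.32 and 28.9 (labelled WT) and 6.36, 50.3 and 46.9 (labelled KO), the low values being in the same libraries in which Ddx3y was at or near 0. The part of the animals' sex or origin in these differences was not tested. The parent Rpl39 was at 8055 ± 665 in nonconfined KO and 6884 ± 391 in confined KO, a decrease of its own at -0.22 (SE 0.064, adjusted p = 0.00632).

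**Figure D3:**
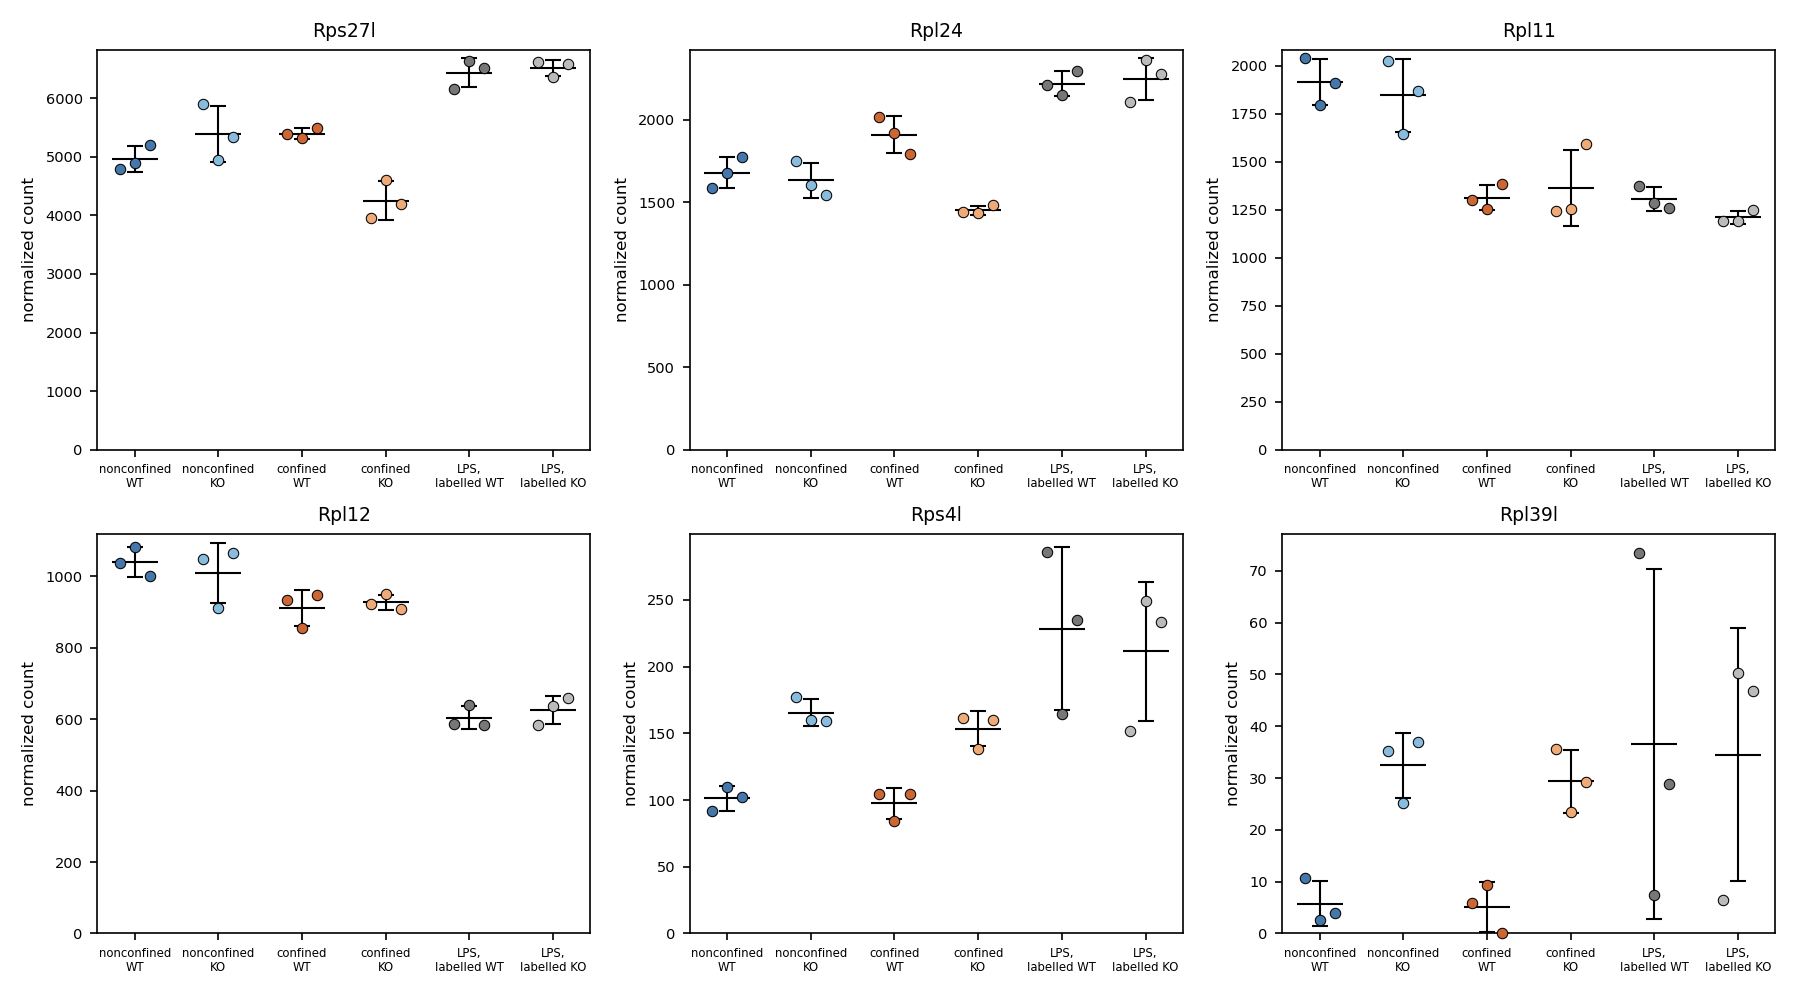
Normalized counts of Rps27l, Rpl24, Rpl11, Rpl12, Rps4l and Rpl39l in each of the 18 libraries (points), with mean ± SD of 3 libraries per group. Rps27l averaged 4252 in confined KO against 5397 in confined WT, and Rpl12 averaged 604 and 626 in the groups labelled LPS WT and LPS KO against 1040 in nonconfined WT, the LPS decrease being present on both scales.

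Rpl3l changed by -0.57 (SE 0.22, adjusted p = 0.034) with confinement in WT from a low level (70.9, 54.6 and 63.9 against 43.5, 37.7 and 45.0 counts), and the change was -0.59 to -0.48 with adjusted p from 0.0534 to 0.119 when any 1 of nonconfined WT replicate 1 or 3 or confined WT replicate 1 or 2 was left out. In KO it was -0.47 with an adjusted p of 0.0906, and the genotype difference of these changes, 0.10, was not called. Rpl22l1, which shares RNA targets with Rpl22, differed between confined KO and confined WT by -0.28 (SE 0.091, adjusted p = 0.019), or -0.24 (adjusted p = 0.0778) without confined WT replicate 1 and -0.24 (adjusted p = 0.0801) without confined KO replicate 1. With equal totals it was not called, at -0.12 (adjusted p = 0.3). Rpl22 itself changed by -0.25 (SE 0.058, adjusted p = 0.00114) with confinement in KO. Rpl32l was not called in any of the 9 comparisons, and its parent Rpl32 changed by -0.26 (SE 0.061, adjusted p = 0.00131) with confinement in KO.

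After LPS many members were lower, by amounts that depended on the scale. Across the 2 labels, 52 members were lower than in nonconfined cells (61.9%) and 5 higher (5.95%), beside 34.3% of all genes lower and 37.2% higher. The median member changed by -0.14 and the median gene by 0.020. With equal totals 80 were lower and none higher at a median of -0.63, where all genes moved by -0.46, and the members lay 0.16 below the typical gene with the authors' size factors and 0.17 below it with equal totals. With the 6 LPS libraries fitted as 1 group without labels, 5 were higher and 53 lower. All 52 decreases were called on every scale and by every tool, whereas none of the 5 increases was. Lower members included 20 of 30 small subunit and 30 of 43 large subunit proteins, 1 stalk protein and 1 paralog.

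Rpl12, at the base of the stalk, had the largest decrease with LPS. It had 1038, 1083 and 1000.4 counts in nonconfined WT, 1049.9, 911 and 1065 in nonconfined KO and in the 6 LPS libraries the lowest 582, median 612 and highest 659. The LPS libraries lay well below all others. The change was -0.73 (SE 0.051, adjusted p = 2.41e-11), and -1.23 with equal totals. Rpl11 in the LPS libraries was at the lowest 1189, median 1253 and highest 1375, below all nonconfined libraries, a change of -0.58 (SE 0.061, adjusted p = 2.07e-08). Rpl37 changed by -0.46 (SE 0.056, adjusted p = 1.85e-07), Rpl5 by -0.24 (SE 0.045, adjusted p = 5.22e-05) and the stalk protein Rplp1 by -0.22 (SE 0.040, adjusted p = 6.56e-05).

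The increases with LPS turned on the scale. Rps27l was at the lowest 6159, median 6551 and highest 6636 in the LPS libraries and Rpl24 at the lowest 2109.8, median 2244 and highest 2360.5, in both cases above all nonconfined libraries. Rps27l changed by 0.33 (SE 0.042, adjusted p = 4.71e-07) with the authors' size factors and -0.17 with equal totals. Rpl24 changed by 0.43 (SE 0.043, adjusted p = 9.8e-09) and -0.063, and Rpl7l1 by 0.17 (SE 0.029, adjusted p = 3.09e-05) and -0.33. Rps4l, at the lowest 152, median 234 and highest 286, changed by 0.73 (SE 0.13, adjusted p = 5.5e-05) and 0.23 (adjusted p = 0.106). With the authors' size factors its change was 0.64 without LPS labelled WT replicate 1 and 0.84 without LPS labelled KO replicate 1. By Ddx3y these replicates go against their labels, and the part of the animals' sex or origin was not tested.

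Between the LPS libraries labelled KO and those labelled WT, limma called 0 members in either direction, beside 0% of all genes higher and 0% lower. At unadjusted p under 0.05 it gave 2 of 84 members higher and 0 lower, beside 890 of 17875 genes in either direction. EdgeR and DESeq2 called 0 members as well, with 2 at unadjusted p under 0.05 each, both higher, beside 812 and 831 of 17875 genes. The smallest adjusted p of a member was 0.906 with limma, and fold changes ran from -0.22 to 0.29.

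Confined and LPS-treated cells were also set side by side. These comparisons share their libraries with those against nonconfined cells, so the values are given next to each other only. In confined WT against LPS, 21 members were higher (25%) and 11 lower (13.1%), beside 24.5% of all genes higher and 29.8% lower, at a median of 0.043 for members and -0.014 for all genes. TMM gave 40 higher and 7 lower, edgeR 39 and 8 and DESeq2 34 and 8. With equal totals 72 were higher and 2 lower at a median of 0.33, where all genes moved by 0.27. The number higher was 12 without confined WT replicate 1. The number lower was 6 without confined WT replicate 3 and 7 without confined WT replicate 2 or LPS labelled WT replicate 2. Higher were 7 small and 13 large subunit proteins and 1 stalk protein, and 6 of the 11 lower ones were paralogs. Among members that were called and had a mean of at least 100 counts, the largest increases after that of Rpl12 were Rplp1 at 0.28 (SE 0.050, adjusted p = 5.88e-05) and Rps21 at 0.26 (SE 0.059, adjusted p = 0.000922). The largest decreases were Rps4l at -1.14 (SE 0.16, adjusted p = 5.24e-06), Rps13 at -0.55 (SE 0.20, adjusted p = 0.0272), or -0.31 (adjusted p = 0.253) without confined WT replicate 2 and -0.44 (adjusted p = 0.0628) without LPS labelled WT replicate 2, and Rpl27 at -0.33 (SE 0.10, adjusted p = 0.00955), or -0.24 (adjusted p = 0.0936) without confined WT replicate 3. With equal totals Rps13 came to -0.26 (adjusted p = 0.274) and Rpl27 to -0.040 (adjusted p = 0.755). Rps4l also separated KO from WT outside LPS, and the LPS mean holds both labels, so the part of genotype, sex or animals in its value was not tested. In confined KO against LPS, Rps4l was at -0.48 (adjusted p = 0.0148), or -0.41 (adjusted p = 0.0752) without confined KO replicate 2 and -0.042 (adjusted p = 0.82) with equal totals.

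Confined KO against LPS had the opposite balance. Here 38 members were lower (45.2%) and 1 higher (1.19%), beside 32.5% of all genes lower and 30.3% higher. The median was -0.11 for members and 0.027 for all genes. TMM gave 3 higher and 27 lower, edgeR 4 and 26 and DESeq2 4 and 31. With equal totals the direction reversed to 73 higher and 2 lower at a median of 0.33, where all genes moved by 0.46, and relative to the typical gene the members lay at -0.14 and -0.13 on the 2 scales. The number higher was 3 without confined KO replicate 1. Rpl12 was the member called higher in both of these comparisons on every scale, at 0.57 (SE 0.063, adjusted p = 1.17e-07) in confined WT and 0.59 (SE 0.063, adjusted p = 3.84e-08) in confined KO. Rpl24, at -0.62 (SE 0.053, adjusted p = 1.28e-09), and Rps27l, at -0.61 (SE 0.052, adjusted p = 1.07e-09), were the 2 called lower in confined KO against LPS on every scale. Rpl27 was at -0.61 (SE 0.10, adjusted p = 1.96e-05) with the authors' size factors and -0.17 (adjusted p = 0.138) with equal totals.

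Some members have known roles outside the ribosome. Rplp0, often used as a reference gene in quantitative PCR, had 55239, 50078 and 53292 counts in nonconfined KO and 45427, 47747 and 48953 in confined KO, which did not overlap, a change of -0.16 (SE 0.046, adjusted p = 0.00782). In WT it had 56399.7, 54008 and 54447 and 56337, 52675 and 53461, an uncalled change of -0.021, and confined KO differed from confined WT by -0.19 (SE 0.046, adjusted p = 0.002) with the authors' size factors but by -0.038 (adjusted p = 0.534) with equal totals. Rpl13a, which silences inflammatory messages as part of the GAIT complex, changed by -0.24 (SE 0.061, adjusted p = 0.00237) in confined KO and -0.24 (SE 0.043, adjusted p = 4.96e-05) with LPS. Rps3, a partner of NF-κB and a DNA repair protein, changed by -0.18 (SE 0.045, adjusted p = 0.0021) and -0.12 (SE 0.032, adjusted p = 0.00158). Rps19 changed by -0.30 (SE 0.051, adjusted p = 5.71e-05) in KO, and Rps6, the substrate of the ribosomal S6 kinases, by -0.26 (SE 0.086, adjusted p = 0.0159), or -0.25 to -0.21 with adjusted p from 0.0507 to 0.0817 when any 1 of nonconfined KO replicate 1 or 3 or confined KO replicate 2 or 3 was left out. Rpl38, known for its part in the translation of Hox messages, changed by -0.27 (SE 0.076, adjusted p = 0.00565) in KO, or -0.18 (adjusted p = 0.0535) without nonconfined KO replicate 1. The change with confinement in KO minus the change in WT was not called for Rplp0, Rpl13a, Rps3, Rps6 or Rpl38.

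Rps3a1, Fau and Rack1, whose products ribosomes carry, lie outside the symbol rule. Rps3a1, a small subunit protein, changed by -0.23 (SE 0.052, adjusted p = 0.000949) with confinement in KO and Fau, which encodes a ubiquitin-like fusion with a small subunit protein, by -0.28 (SE 0.078, adjusted p = 0.00587). Rack1, the scaffold on the small subunit head, went from 37234 ± 2384 to 29946 ± 893 in KO, a change of -0.31 (SE 0.044, adjusted p = 6.22e-06). In WT their changes were -0.12, -0.0012 and -0.13 (SE 0.044, adjusted p = 0.0144), the last -0.11 (adjusted p = 0.0673) without confined WT replicate 2.

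Translation factors whose messages also start with a TOP motif were read from a list of 17 genes. Of all genes, 28.2% were higher and 28.4% lower with confinement in WT, 22.8% and 23.4% in KO, 10.2% and 15.6% in the test of the genotype difference and 37.2% and 34.3% with LPS. With confinement 9 were lower and 2 higher in WT, and 13 lower and 0 higher in KO, at medians of -0.13 and -0.28, or -0.36 and -0.32 with equal totals. In the test of the genotype difference 7 were lower and 0 higher, at a median of -0.11, or 0.082 with equal totals. Eef1a1, which delivers tRNAs and is the most abundant of them, changed by -0.27 (SE 0.042, adjusted p = 2.16e-05) in KO and Eef2, the translocase, by -0.24 (SE 0.045, adjusted p = 0.000181). Pabpc1, the cytoplasmic poly(A)-binding protein, went another way: 40058, 40183 and 40088 counts in nonconfined WT and 63558, 59502 and 60931 in confined WT, against 40052, 38786 and 39096 and 38598, 33744 and 36919.6 in the KO states. It rose in WT by 0.61 (SE 0.047, adjusted p = 2.97e-10), and the genotype difference was -0.72 (SE 0.066, adjusted p = 1.93e-08), or 0.39 and -0.54 with equal totals. In KO its change of -0.11 was not called, while equal totals gave -0.15 (adjusted p = 0.00914). With LPS 12 of the 17 were lower and 3 higher, at a median of -0.15, or -0.64 with equal totals.

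Of 23 initiation factors, 10 were higher and 8 lower with confinement in WT (28.2% and 28.4% of all genes), 10 and 7 in KO (22.8% and 23.4%), and 16 and 6 with LPS (37.2% and 34.3%), at medians of -0.014, 0.11 and 0.27, or -0.24, 0.070 and -0.22 with equal totals. Beside the same shares of all genes, of 16 regulators of TOP messages and mTORC1 8 were higher and 5 lower in WT, 6 and 4 in KO, and 10 and 3 with LPS, at medians of 0.15, 0.14 and 0.22, or -0.072, 0.11 and -0.27 with equal totals. In the test of the genotype difference (10.2% of all genes higher and 15.6% lower), 3 initiation factors were higher and 8 lower at a median of -0.052, or 0.14 with equal totals, and 5 regulators were higher and 4 lower at a median of -0.051, or 0.14 with equal totals. Larp1, which binds TOP messages, had 12471, 12066 and 12014 counts in nonconfined WT and 16651, 16198 and 15749 in confined WT, and 10234, 11150.2 and 10585 and 10482, 9931 and 9961 in the KO states. It rose in WT by 0.41 (SE 0.048, adjusted p = 1.95e-07), changed by -0.073 in KO without passing, and the genotype difference was -0.48 (SE 0.067, adjusted p = 9.33e-06). With LPS it reached the lowest 22321, median 23482 and highest 25541, a change of 1.05 (SE 0.034, adjusted p = 2.45e-17). With equal totals the values for Larp1 were 0.19 (adjusted p = 0.000773) in WT, -0.11 (adjusted p = 0.0414) in KO, which is a call, -0.30 (adjusted p = 0.000689) for the difference and 0.56 (adjusted p = 5.05e-13) with LPS. Eif4ebp2, an inhibitor of cap-dependent initiation, changed by -0.87 (SE 0.054, adjusted p = 8.6e-12) in WT, -0.34 (SE 0.054, adjusted p = 2.45e-05) in KO and -1.17 (SE 0.038, adjusted p = 3.8e-17) with LPS, or -1.10, -0.38 and -1.66 with equal totals.

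Chaperones dedicated to single ribosomal proteins were measured for 6 of 7 listed genes, and 4 fell with confinement in WT, 2 in KO and 5 with LPS, while none rose with confinement and 1 rose with LPS, beside 28.4%, 23.4% and 34.3% of all genes lower and 28.2%, 22.8% and 37.2% higher. Their medians were -0.30, -0.10 and -0.55, or -0.53, -0.14 and -1.05 with equal totals. In the test of the genotype difference 1 chaperone was higher and 0 lower, beside 10.2% and 15.6% of all genes, at a median of 0.23, or 0.42 with equal totals. Mitochondrial ribosomal proteins, 78 in all, are a separate family made for the organelle. With confinement 44 were lower and 5 higher in WT (28.4% and 28.2% of all genes) and 39 lower and 3 higher in KO (23.4% and 22.8%), and with LPS 46 were lower and 11 higher (34.3% and 37.2%), at medians of -0.23, -0.20 and -0.22, or -0.46, -0.23 and -0.72 with equal totals. For the genotype difference in the response, 12 of them were higher and 3 lower (10.2% and 15.6% of all genes), at a median of 0.085 with the authors' size factors and 0.27 with equal totals, where the cytosolic members were at -0.17 and 0.018.

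Markers of other cells moved between the same groups. The 5 genes of proliferating cells, led by Top2a, summed to 32432, 33708 and 33842 in nonconfined WT, 24811, 26447 and 25397 in nonconfined KO, 19184, 20292 and 20012 in confined WT, 18150.4, 19127 and 18432 in confined KO and, in the LPS libraries, the lowest 12838, median 15274 and highest 16980.1. Their sum was lower in both confined groups and lowest with LPS. Of the 5 genes, 4 were called lower with confinement in WT, 3 in KO and 4 with LPS, and 0 higher. Of all genes, 28.4%, 23.4% and 34.3% were lower and 28.2%, 22.8% and 37.2% higher. In confined KO against LPS, 4 of the 5 were higher and 1 lower, beside 30.3% and 32.5% of all genes. The 8 neutrophil genes, led by S100a9, summed to 238752, 243828 and 242192 in nonconfined WT, 369490.1, 332192 and 357354 in nonconfined KO, 154013, 146804 and 144581 in confined WT, 333025, 346015 and 329984 in confined KO and, with LPS, the lowest 276705, median 293281 and highest 312354. Their sum was higher in KO than in WT in both states and was lower after confinement in WT, while the 2 states overlapped in KO. The 4 eosinophil genes, led by Prg2, summed to 26837, 26634 and 26468, 66923, 62461 and 64499, 6049, 5775 and 5645 and 15297, 14924 and 15795 in the same order of groups and, with LPS, the lowest 22085, median 30916 and highest 39059. This sum was lower after confinement in both genotypes. Of the 4 genes, 3 were called lower and 1 higher with confinement in WT, and 4 lower and 0 higher in KO, beside the same shares of all genes.

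The 5 mast cell and basophil genes, led by Cpa3, summed to 6066, 6316 and 6173, 9617, 9244 and 9153, 2623, 2462 and 2489.8 and 4098, 3975 and 4121 in nonconfined WT, nonconfined KO, confined WT and confined KO, and with LPS the lowest 5823, median 6015 and highest 6461. The 6 macrophage genes, led by Cd68, summed to 23945, 23129.9 and 23579.5, 26202, 27147 and 26349, 24628, 23441 and 24048 and 27471, 24868 and 27259.8 in that order, with LPS the lowest 25269, median 29132 and highest 32304. The 4 T and B cell genes, led by Cd3g, summed to 2367, 2332 and 2318, 3013, 2741 and 2955, 729.6, 767 and 662 and 946, 1191 and 1026, with LPS the lowest 386, median 478 and highest 494. These sums were lower in confined than in nonconfined cells for the mast cell and the T and B cell genes. Of the 6 macrophage genes, 3 were called lower and 1 higher with confinement in WT, beside 28.4% and 28.2% of all genes. In KO 4 were lower and 1 higher, beside 23.4% and 22.8% of all genes. Of the 8 neutrophil genes, 8 were called lower in WT and 3 in KO, and 0 higher. The 5 mast cell and basophil genes were all called lower in both. Of the 4 T and B cell genes, 2 were lower in WT and 3 in KO, and 0 higher. The DC genes, led by Cd74, summed to 371305, 345594 and 351884, 428989.6, 404533 and 418991, 334299.7, 312236 and 322355 and 296434, 281648 and 294833, with LPS the lowest 463067, median 497159.5 and highest 530489. This sum was lowest in confined KO. Of the 7 genes, 2 were called lower and 0 higher in confined KO than in confined WT, beside 20.6% and 18.8% of all genes. With confinement 6 were lower and 1 higher in WT, and 7 lower and 0 higher in KO. No marker was at 0 in all libraries, and Ms4a1 was the one under a mean of 10. The part of any of these cells in the changes of the ribosomal protein messages was not tested.

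Some members have a pyrimidine run at the annotated start of transcription. RefSeq promoters (build GRCm38.p6) covering 250 bases before and 50 bases from the start were found for 63 members, 75 promoters in all, with 10 members having more than 1. A C at the annotated start followed by at least 4 more C or T was present in 14 of the 75 (18.7%), beside 2.51% of all 32851 promoters of the same length. CCGGAAG, on either strand, was present in 26 (34.7%), beside 8.86% of all, and CTCTTTC, on either strand and at times within a pyrimidine run, in 20 (26.7%), beside 8.16%. These letters were chosen after the sequences had been seen, and a match is a description. The starts used in these DCs were not measured. A missing run at an annotated start thus does not show a transcript without a TOP motif. The windows from 15 bases before the start to 15 bases from it are shown as examples, not as a share, for members called in the test of the genotype difference with the authors' size factors, with the pyrimidine run at the start in capitals: Rplp2 (chr7:141447636-141447665), Rpl35a (chr16:33056467-33056496) and Rps21 (chr2:180257364-180257393) with a run of this kind, and Rpl24 (chr16:55966260-55966289) and Rps27l (chr9:66946071-66946100) without one at the annotated start, all on the plus strand. Among those shown, only Rps27l was also called with equal totals. Rpl35a has 3 annotated starts in this table, of which 1 has such a run, Rps21 has 2, of which 1 has it, and Rps27l has 2, neither with it. Rpl37, Rpl10 and Rps19, which were called in the same test, have no such run at any annotated start, and Rpl32 and Rps20 had no entry.
Rplp2: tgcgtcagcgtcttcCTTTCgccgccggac
Rpl35a: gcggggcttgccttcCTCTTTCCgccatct
Rps21: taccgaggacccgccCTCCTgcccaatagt
Rpl24: agaaagctgttgctaggaaacagactgggc
Rps27l: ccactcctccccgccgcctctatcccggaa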

How the data were processed

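RNA-seq libraries of 6 groups with 3 libraries each were analysed. Per the submitters' processing notes, reads were mapped with STAR (2.7.5a) to mm39 and counted per gene on a Mouse FAST DB annotation, with featureCounts (1.5.0) and R (3.5.3) named. The deposited values are a gene-level signal that the authors made by dividing read counts by 1 DESeq2 size factor per library, without scaling for gene length. Every column held whole multiples of 1 step, so whole reads were recovered for 100% of values (tolerance 0.01). No column lacked a sample. Handling of reads that map to several places was not given in the sources used here.

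A gene was kept when 3 or more libraries reached 10 normalized counts (17875 of 62197). Log2 values with 1 added were fitted with limma (3.58.1, trended variance) in R (4.3.3), with a mean per group over all 18 libraries and 12 residual degrees of freedom. P-values were adjusted over all 17875 genes by the Benjamini-Hochberg method, and a call is an adjusted p under 0.05 with no fold limit. Contrasts were confinement in WT, confinement in KO, their difference (the interaction), KO minus WT in each state, LPS minus nonconfined, and confined minus LPS for each genotype, LPS being the mean over both labels. For LPS labelled KO minus LPS labelled WT, edgeR (4.0.16) and DESeq2 (1.42.0) on the recovered reads called 0 genes each. The scripts were tested on simulated data.

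Other settings tried were adding 0.5 or 5 instead of 1, dropping the filter or raising it to 100, each library set to an equal total, TMM, edgeR quasi-likelihood, DESeq2, a fit of only the groups compared, the replicate number as a term, a fold change of 1.5 with unadjusted p under 0.05, an absolute log2 fold change above 1, and leaving out each library in turn. Shares were also taken without the 100 largest other genes.

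Named were every member outside the core with its parent gene, the 3 largest increases and decreases called per comparison with a mean of at least 100 counts, members with a known second role, the members with the highest and lowest mean, Pla2g4a and Y-linked genes, and at most 4 genes with the largest mean of each other list. Rpl41, and Rps3a1, Fau and Rack1, were named after their values were seen. Some genes outside the symbol rule are not reported here. Members and lists (subunits, translation factors with a TOP start, initiation factors, regulators of TOP messages and mTORC1, dedicated chaperones, mitochondrial ribosomal proteins and cell markers) were chosen with earlier results of these data known. Python (3.11.15) and matplotlib (3.10.9) served for tables and figures.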

Additional observations from a re-analysis of the deposited data

Results flagged for a closer look

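A difference between the genotypes' responses to confinement, by a test of the difference itself, put 27 members here, all with a lower change in KO than in WT (32.1% of members, beside 15.6% of all genes lower and 10.2% higher). With every library set to an equal total 1 was lower and 4 were higher, and leaving out 1 library at a time gave 10 to 48 lower. Among named members the difference (log2) was -0.46 for Rps27l, -0.38 for Rpl35a, -0.36 for Rpl10, -0.35 for Rpl24, -0.35 for Rps20, -0.31 for Rps21, -0.30 for Rpl37, -0.29 for Rpl32, -0.29 for Rplp2 and -0.23 for Rps19. The calls of Rpl10, Rps21, Rpl37, Rplp2 and Rps19 were each lost when certain single libraries were left out. On the scale of equal totals the difference for Rps27l was -0.28 (adjusted p = 0.0199), and none of the other 9 was called. No cause was tested, and genotype cannot be told apart from the animals the cells came from or their sex.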

How the results depend on the processing

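Scaling to equal totals was the setting under which named values reversed. With every library set to an equal total, members higher and lower numbered 0 and 74 for confinement in WT, 4 and 1 for the interaction, 5 and 4 for confined KO minus WT, 0 and 80 for LPS minus nonconfined, 72 and 2 for confined WT minus LPS and 73 and 2 for confined KO minus LPS. Under it 30 of the 169 named values reversed, 30 were weaker and 109 were the same. Reversed were Rpl24 at -0.039 and Rplp2 at -0.0090 for confinement in WT, Rack1 at 0.0097 and Eef1a1 at 0.014 for the interaction, Rps4x at 0.0081 for confined KO minus WT, and Rpl24 at -0.063, Rpl7l1 at -0.33, Rps27l at -0.17 and Pabpc1 at -0.24 for LPS minus nonconfined. For confined WT minus LPS they were Rpl10 at 0.12, Rpl24 at 0.062, Rpl36al at 0.046, Rpl7l1 at 0.12, Rps27l at 0.025 and Eef1a1 at 0.20. For confined KO minus LPS they were Rpl10 at 0.24, Rpl22l1 at 0.17, Rpl3 at 0.26, Rpl35a at 0.30, Rpl36al at 0.16, Rpl39 at 0.22, Rpl7 at 0.18, Rpl7l1 at 0.19, Rplp0 at 0.33, Rps19 at 0.30, Rps20 at 0.13, Fau at 0.056, Pabpc1 at 0.058, Eef1a1 at 0.16 and Eef2 at 0.31. The alternative replaces the size factors, and the cause was not tested.

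The other settings reversed no named value but moved counts. TMM gave 4 members higher for confinement in WT, 40 higher and 7 lower for confined WT minus LPS and 3 higher for confined KO minus LPS. EdgeR gave 4, 39 and 4 members higher for these 3 comparisons, and DESeq2 gave 4 higher for nonconfined KO minus WT, 34 higher for confined WT minus LPS and 4 higher for confined KO minus LPS. Fitting only the groups compared gave 1 lower for nonconfined KO minus WT, and the filter of 100 gave 1 higher for confined KO minus WT. A fold change of 1.5 with unadjusted p under 0.05 gave, higher and lower, 0 and 0 for confinement in WT, 0 and 0 in KO, 0 lower for the interaction, for nonconfined KO minus WT and for confined KO minus WT, 1 and 1 for LPS minus nonconfined, 0 and 2 for confined WT minus LPS and 3 lower for confined KO minus LPS. An absolute log2 fold change above 1 gave 0 and 0 for every comparison except confined KO minus WT (1 and 0) and confined WT minus LPS (0 and 2). These 2 limits weakened 149 and 163 of the 169 named values and moved most counts to or near 0, since both exceed most changes of the members. Without the 100 largest other genes in the total, shares were 3.63% in nonconfined WT, 3.60% in nonconfined KO, 3.07% in confined WT, 3.03% in confined KO, 2.51% in LPS labelled WT and 2.53% in LPS labelled KO. Of 3615 alternative values of named genes, 3024 were the same, 561 weaker and 30 reversed.

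Leaving out each library in turn gave ranges. Members higher and lower ran from 0 to 3 and 13 to 20 for confinement in WT, 0 to 0 and 59 to 74 in KO, 0 to 0 and 10 to 48 for the interaction, 0 to 6 and 1 to 2 for nonconfined KO minus WT, 1 to 2 and 30 to 47 for confined KO minus WT, 4 to 6 and 47 to 55 for LPS minus nonconfined, 12 to 24 and 6 to 11 for confined WT minus LPS and 1 to 3 and 27 to 39 for confined KO minus LPS. Shares ran from 2.83% to 2.84% in nonconfined WT, 2.702% to 2.84% in nonconfined KO, 2.30% to 2.33% in confined WT, 2.23% to 2.34% in confined KO, 1.77% to 1.85% in LPS labelled WT and 1.78% to 1.86% in LPS labelled KO.

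With the replicate number as a term (replicate block), members lower numbered 20 for confinement in WT, 68 in KO and 22 for the interaction, and 163 of the 169 named values were the same and 6 weaker. Whether libraries of the same number came from the same animal or culture is not given in the sources used here. Their deviations from the group means correlated at 0.34, 0.21 and 0.040 between confined WT and confined KO, at 0.18, 0.11 and -0.064 between nonconfined WT and confined WT, at 0.16, 0.21 and -0.016 between nonconfined WT and confined KO, and at 0.0054, 0.028 and -0.019 between nonconfined KO and confined KO. The library of the same number was the best correlated of the 3 in another group in 25 of 90 cases. That is no more often than a random pick among the 3 would give.

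Added after seeing the data were the fits without the LPS libraries and with the 6 LPS libraries as 1 group. The first kept 93 named values and weakened 1, and the second kept all 75. With 3 libraries per group, small changes of scarce members such as Rpl39l and Rpl3l are measured with little precision.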
